A study of Mus musculus with 3 samples.

Results

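The transcripts described here are 44 genes that defend cells against oxidants: the transcription factor NRF2 (Nfe2l2) and its inhibitor Keap1, 25 genes that NRF2 is known to drive, and 17 other antioxidant genes. They were found on the array by gene symbol, by a current symbol matched through the probe's accession, or by synonym. All 44 were on the array, with 75 probes, among 27597 names given to its probes. Of these 44 genes, 40 had a probe well above background on at least 1 of the 3 arrays, as did 14562 of the names.

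RNA came from peritoneal macrophages of male Swiss albino mice aged 8 weeks, hybridised to 3 one-colour Agilent whole-genome arrays, 1 per group. All groups shared an intraperitoneal injection of 125 µg lipopolysaccharide on day 0, a bacterial product that draws macrophages into the peritoneum, and 100 ng of the phorbol ester TPA on day 4. The mice of the control group received TPA alone, and those of the other groups received it together with 35 or 70 nmol of hexavalent chromium as potassium dichromate. The labels give these amounts once as the salt and once as Cr(VI). Peritoneal lavage followed 4 days after chromate. Each group had 10 mice, and the labels do not say whether an array held 1 mouse or a pool. Lipoic acid, which the series title names, was part of no group analysed here.

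Hexavalent chromium enters cells and is reduced there by glutathione, ascorbate and other thiols, which uses up reducing power and yields reactive oxygen species. KEAP1 normally holds NRF2 for degradation. When oxidants or electrophiles modify KEAP1, NRF2 builds up, pairs with a small MAF protein and binds antioxidant response elements beside genes for glutathione synthesis, thioredoxin, NADPH supply and conjugation. BACH1 competes for the same elements and keeps some of these genes off. Macrophages make superoxide themselves and so rely on dismutases, peroxidases and peroxiredoxins even at rest.

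With 70 nmol of chromate, the listed oxidant defence genes measured on both arrays lay within 0.59 of their levels with TPA alone. Some lay higher and some lower. The transferase Gsta3 had no signal well above background on the 70 nmol array and is outside that range. It was at least 2.22-fold lower than with TPA alone. Outside the list, 16 further genes of the pathway were measured and lay between -0.52 and 0.95 (heme oxygenase Hmox1), 12 higher and 4 lower. Slc7a11 and Maff, also outside the list, were at least 5.41-fold and 3.14-fold higher. The level of a probe is its log2 processed signal minus the array's 75th percentile, and levels of different probes cannot be set against each other. Glutaredoxin Glrx, sulfiredoxin Srxn1, peroxiredoxin Prdx5, Nfe2l2 and the transferase Gstp1 lay 0.46 to 0.59 higher at 70 nmol than with TPA alone on their brightest probes, with the probes of Srxn1 in disagreement. The transferases Mgst1 and Gstm1, the peroxiredoxin Prdx4, catalase Cat and the epoxide hydrolase Ephx1 lay lower, by differences of -0.59 to -0.42, with a dim Prdx4 probe in disagreement. With 35 nmol Gsta3 lay 2.06 higher and the malic enzyme Me1 lower (-0.69), and every other measured member lay between -0.25 and 0.47. A single array stands for each group, so differences carry no test and no p-value. The spread that can be quoted is technical. The scanner error of a difference had a median of 0.21. The standard deviation between probes of a gene had a median of 0.13 (4122 genes) at 70 nmol and 0.12 (4196 genes) at 35 nmol. Repeated spots varied less, with median standard deviations of 0.043 with TPA alone and at 35 nmol, and 0.034 at 70 nmol. The scanner error did not follow the spots. For a Prdx2 probe with 10 spots it was 0.144 on each array, beside 0.017 to 0.026 between spots. Lying within or beyond the scanner error is thus no measure of noise on these arrays. Differences below are given with the scanner error after ±. None of this spread covers differences between mice. In the RNA of an array, fewer cells of a type cannot be told apart from less RNA per cell.

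Of the 44 genes, 38 were measured on all arrays, that is, well above background and not saturated. Among them 0 differed at least 2-fold at 70 nmol from TPA alone, a size reached upward by 1.63% and downward by 1.08% of the 12541 genes measured. That count leaves out Gsta3, whose difference at 70 nmol is a bound. At least 1.5-fold (0.585 on the log2 scale), 1 member was higher (Glrx) and 1 lower (Mgst1), beside 5.55% and 3.83% of all genes. The members' median difference was 0.17, within a range of -0.59 to 0.59, and the median of all genes was 0.04. Above the all-gene median lay 23 members and below it 15. For the NRF2-driven genes the median was 0.18 (21 measured, 13 above the all-gene median and 8 below), and for the other antioxidant genes 0.15 (15 measured, 8 above and 7 below).

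At 35 nmol against TPA alone, 1 of 39 measured members was at least 2-fold higher (Gsta3) and 0 at least 2-fold lower, beside 1.12% and 0.299% of 12730 genes. At least 1.5-fold, the corresponding shares of all genes were 2.96% higher and 1.92% lower, and Me1 was the 1 member lower by that much. The members' median was 0.13, against 0.04 for all genes, with 28 members above the all-gene median and 11 below. The NRF2-driven genes had a median of 0.13 (22 measured) and the other antioxidant genes 0.12 (15 measured). Both comparisons use the same TPA array, so their likeness carries no weight of its own. Positive differences this small also depend on the scale. When arrays were scaled on spike-in RNA instead, every difference shifted by the same amount, -0.36 against TPA alone at the higher dose and -0.42 at the lower. Then 8 of 38 members lay above 0 at 70 nmol and 4 of 39 at 35 nmol. "Higher" and "lower" therefore describe a gene's place relative to the other genes of the array.

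**Figure D1:**
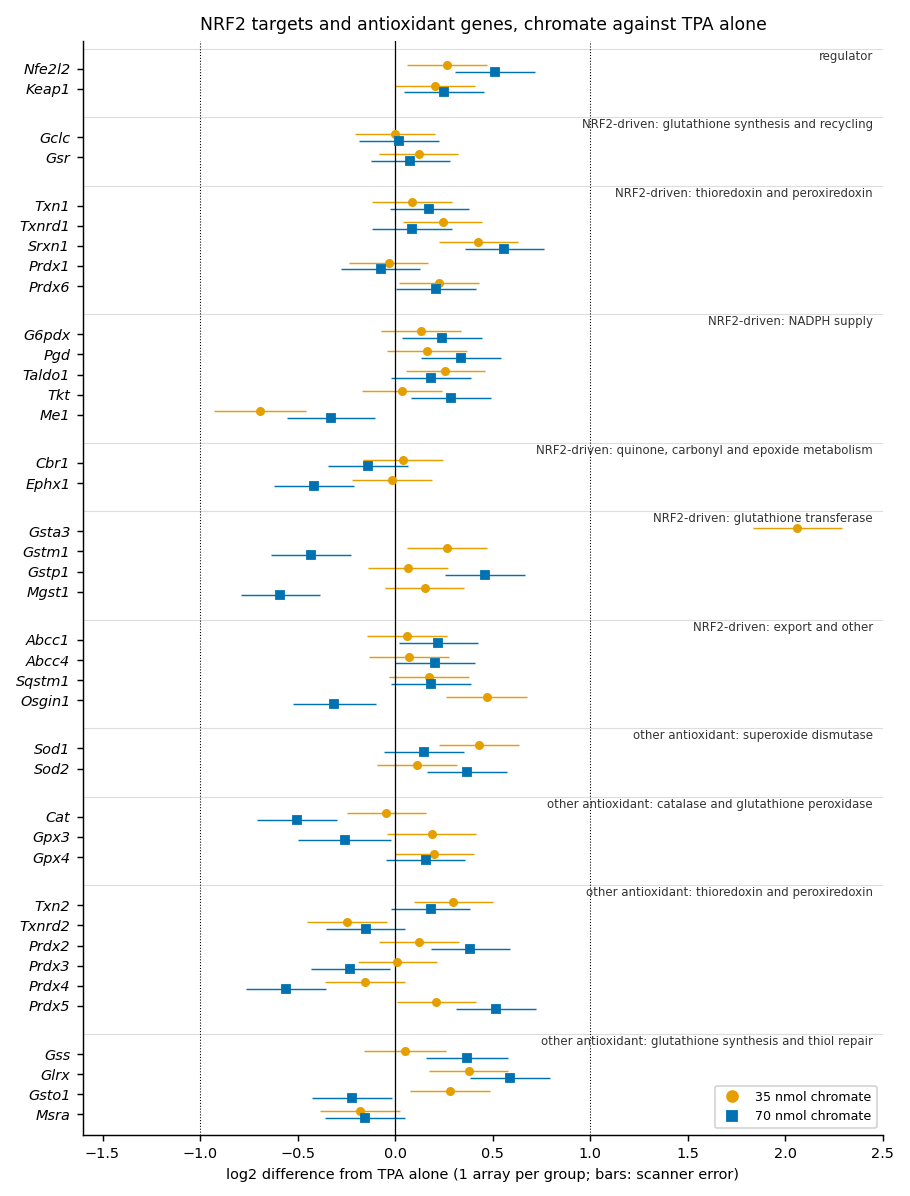
Log2 difference from TPA alone (horizontal axis) for each measured member, at 35 nmol (orange circles) and 70 nmol chromate (blue squares), grouped by role; bars show the scanner error of a difference with 1 array per group, and dotted lines mark 2-fold. Gsta3 at 35 nmol, at 2.06, is the only point beyond 2-fold, and it has no point at 70 nmol, where its signal was not well above background; with spike-in scaling all points would shift left by 0.36 (70 nmol) or 0.42 (35 nmol).

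**Figure D2:**
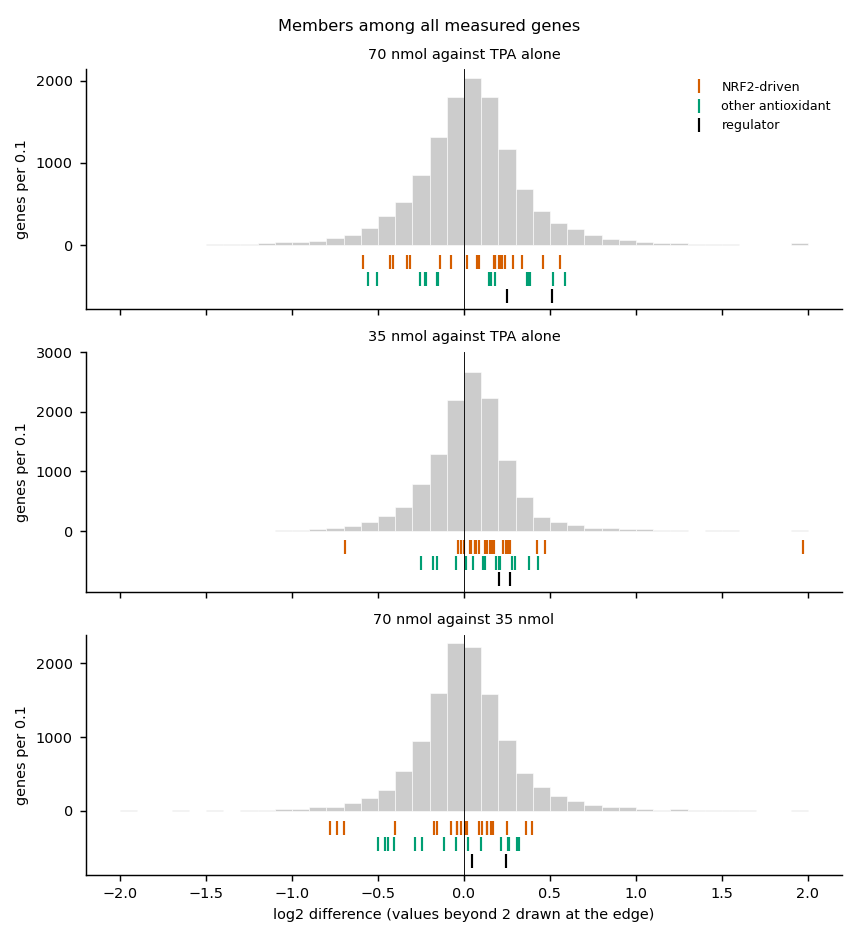
Number of measured genes per 0.1 of log2 difference (grey) in the 3 comparisons, with each member as a tick below: NRF2-driven genes in orange, other antioxidant genes in green and regulators in black. At 70 nmol against TPA alone the members lie between -0.59 and 0.59, and Gsta3 has no tick. Their quartiles, -0.20 and 0.28, are wider apart than those of all genes, -0.14 and 0.21. With spike-in scaling, members and genes would shift together.

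Promoters were read to show what the NRF2-driven genes have in common in their sequence. These genes were listed as known NRF2 targets, so a greater share with the core could follow from that choice and is no independent result. RefSeq promoter windows on mouse build GRCm38.p6, 250 bases before to 50 after the start of transcription, were found for 37 of the 44 genes. The core of the antioxidant response element, TGACNNNGC on either strand, was in the windows of 10 of 20 NRF2-driven genes, 1 of 15 other antioxidant genes (Sod1) and Nfe2l2 itself, against 3781 of 27025 genes. Its variant TGAGNNNGC, counted after the first core had been, was in those of 6 of 20 NRF2-driven genes and 1 of 15 others, against 19.8% of all genes. Either core was in the windows of 13 of 20 NRF2-driven genes and 2 of 15 others, against 30.8% of all genes. The AP-1 site TGACTCA, the element through which TPA acts on many genes, can lie inside either core, and was in the windows of 5 of 20 NRF2-driven and 1 of 15 other genes (Glrx), against 5.95% of all. A match describes these letters only, and a window without one says nothing about binding elsewhere.

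The windows below show matches upstream of the start in 9 members. Upstream matches of other members, Nfe2l2 among them, are not shown. The printed windows run 5′ to 3′ on the gene's strand, with the matched bases in capitals. Those of Prdx1 (chr4:116685446-116685494, plus strand), Srxn1 (chr2:152105459-152105507, plus), Gstp1 (chr19:4037958-4038006, minus) and Osgin1 (chr8:119437028-119437076, plus) hold a core with an AP-1 site inside it. Those of G6pdx (chrX:74428909-74428957, minus), Gclm (chr3:122245403-122245451, plus), Mgst1 (chr6:138140451-138140499, plus) and Gsta3 (chr1:21240444-21240492, plus) hold the core TGACNNNGC with other bases in the middle. That of Glrx (chr13:75839767-75839813, plus) holds an AP-1 site and neither core.
Prdx1: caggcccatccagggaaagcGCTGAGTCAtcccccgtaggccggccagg
Srxn1: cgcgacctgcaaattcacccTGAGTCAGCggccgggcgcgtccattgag
Gstp1: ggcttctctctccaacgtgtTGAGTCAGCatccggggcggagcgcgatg
Osgin1: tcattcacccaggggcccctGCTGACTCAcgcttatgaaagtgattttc
G6pdx: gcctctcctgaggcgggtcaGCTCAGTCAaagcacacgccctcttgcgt
Gclm: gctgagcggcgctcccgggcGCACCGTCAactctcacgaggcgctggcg
Mgst1: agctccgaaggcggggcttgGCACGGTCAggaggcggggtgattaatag
Gsta3: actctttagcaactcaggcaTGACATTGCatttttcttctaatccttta
Glrx: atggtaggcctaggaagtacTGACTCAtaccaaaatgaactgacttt
These 9 genes went different ways at 70 nmol. Gstp1, Glrx and G6pdx (0.24) lay above TPA alone, Mgst1 and Gsta3 below it and Prdx1 within the scanner error of it. Srxn1 lay above it and Osgin1 below it on their brightest probes. A dimmer probe of Srxn1 (-1.16) and a dimmer probe of Osgin1 (0.21) went the opposite way, and the remaining Srxn1 probe differed by 0.04. Gclm was not well above background on any array.

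Both regulators lay above TPA alone at both doses, Nfe2l2 by more at 70 nmol. The brightest Nfe2l2 probe (chromosome 2, 75476553 to 75476612 on build mm8) had levels of 3.53 with TPA alone, 3.80 at 35 nmol and 4.04 at 70 nmol. The 70 nmol array was 0.51 ± 0.20 above TPA alone, a difference above that of 92.9% of measured genes, and the 35 nmol array 0.27 ± 0.20 above. A second Nfe2l2 probe gave 0.40 and 0.18 for the same comparisons, and the remaining probe was near or below background. Keap1, which marks NRF2 for degradation, had levels of 4.30, 4.50 and 4.55 with TPA alone, 35 nmol and 70 nmol, so it was 0.25 higher at 70 nmol and 0.20 higher at 35 nmol. The Keap1 differences hardly exceed their scanner error. Its levels at 70 and 35 nmol differed by 0.05 ± 0.20, so their order is unsettled. The Nfe2l2 differences from TPA alone at 70 nmol exceed the scanner error on both bright probes. With spike-in scaling Nfe2l2 was still above TPA alone at 70 nmol (0.15) and was below it at 35 nmol (-0.15), and Keap1 was below it at both doses (-0.11 and -0.22). NRF2 is controlled mainly through its protein, which arrays do not measure.

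The small MAF partners Mafg and Maff, the competitor Bach1 and the well known NRF2 target Hmox1 lay higher at 70 nmol. A further small MAF, Mafk, differed by 0.09 ± 0.21 at 70 nmol, within the scanner error. Of 22 further genes of the pathway, 16 were measured in each comparison with TPA alone. At 70 nmol their median was 0.16, with 12 above the all-gene median of 0.04 and 4 below, and 2 were higher by 1.5-fold or more and 0 by 2-fold, beside 5.55% and 1.63% of all genes. Hmox1, heme oxygenase, had levels of 4.76, 5.03 and 5.71 with TPA alone, 35 nmol and 70 nmol, a difference of 0.95 ± 0.20 at 70 nmol (1.93-fold). Gstm2, a transferase, was the other, with a difference of 0.68 ± 0.28 at low signal. Bach1 levels were 3.40, 3.69 and 3.93 on the same arrays, and Mafg, a small MAF partner, had 2.01, 2.26 and 2.58, with a second probe 0.49 higher at 70 nmol. Both were thus 0.53 to 0.56 higher at 70 nmol, close to the difference of Nfe2l2. Maff, another small MAF, was not well above background with TPA alone and had levels of -2.51 at 35 nmol and -2.0 at 70 nmol. The difference was at least 2.20-fold at 35 nmol and at least 3.14-fold at 70 nmol, both upward, a bound set by the lowest signal well above background with TPA alone. Slc7a11, the cystine importer that feeds glutathione synthesis, had a level of -1.21 at 70 nmol and was not well above background on the other arrays. On that probe (chromosome 3, 50462611 to 50462670 on mm8) it was at least 5.41-fold higher than with TPA alone and at least 4.56-fold higher than at 35 nmol, while its other 3 probes were not well above background on any array. The transferase Gstm3 and the NADPH-forming isocitrate dehydrogenase Idh1 were lower at 70 nmol, with differences of -0.52 and -0.44. At 35 nmol Idh1 was lower by much the same (-0.43), and Gstm3 differed by 0.08. The ferritin light chain Ftl1 differed by 0.44, the heavy chain Fth1 was saturated, and Gsta1, Gsta2 and Gstt1 were not well above background on any array. At 35 nmol the 16 genes had a median of 0.11, with 12 above the all-gene median and 4 below. Of these 16, 0 reached 1.5-fold in either direction, beside 2.96% of all genes higher and 1.92% lower. The counts at either dose leave out genes whose difference is a bound, Maff at both doses and Slc7a11 at 70 nmol.

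**Figure D3:**
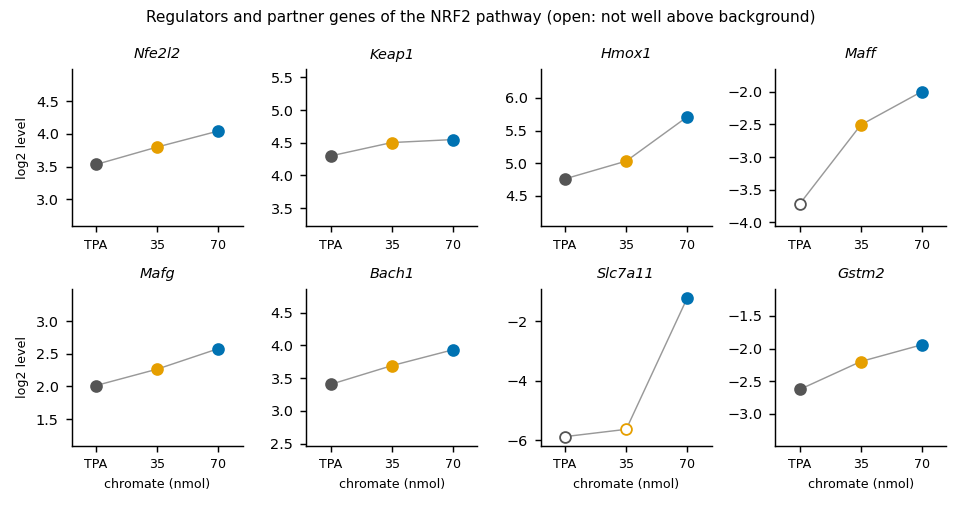
Log2 levels (array 75th percentile at 0; the vertical scales differ) with TPA alone, 35 and 70 nmol chromate for Nfe2l2, Keap1 and 6 further genes of the pathway, 1 array each; open points were not well above background. Hmox1 is at 5.71 at 70 nmol and Slc7a11 is seen at 70 nmol alone, on 1 of its 4 probes.

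Among genes of glutathione synthesis and recycling, Gss lay higher at 70 nmol, and Gclc and the brightest Gsr probe were within the scanner error of TPA alone. Gclc, the catalytic subunit of the rate-limiting enzyme, had levels of 1.07, 1.07 and 1.09 with TPA alone, 35 nmol and 70 nmol. The 3 arrays thus agree far within the scanner error. Its modifier subunit Gclm was not well above background on any array. Gss, which adds the last amino acid, had levels of -0.39, -0.34 and -0.02, a difference of 0.37 ± 0.21 at 70 nmol. Gsr, which returns oxidised glutathione to its reduced form, differed by 0.08 at 70 nmol and 0.12 at 35 nmol, with its other probes at 0.28 and 0.20 at 70 nmol.

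In the NRF2-driven thioredoxin genes, Srxn1 had the greatest difference, and its probes did not share it. Srxn1, which repairs overoxidised peroxiredoxins, had levels of 2.00, 2.42 and 2.56 with TPA alone, 35 nmol and 70 nmol on its brightest probe (chromosome 2, 151802624 to 151802683 on mm8). That probe was 0.56 ± 0.20 higher at 70 nmol and 0.43 higher at 35 nmol. A dimmer probe at 151800890 to 151800949 had levels of -1.15, -2.37 and -2.32 on the same arrays. The remaining probe, at 151800937 to 151800996, overlaps that one and had -2.10, -2.43 and -2.05. The 3 probes thus disagree in direction, and the mean over them gave -0.19 at 70 nmol and -0.37 at 35 nmol. Thioredoxin Txn1 differed by 0.18 and its reductase Txnrd1 by 0.09 at 70 nmol. Prdx1, the main cytosolic peroxiredoxin of macrophages, had levels of 4.28, 4.25 and 4.21, and Prdx6 of 4.50, 4.73 and 4.71. On their brightest probes these 4 genes differed from TPA alone by 0.21 or less at 70 nmol, about the scanner error. Dimmer Prdx6 probes gave 0.24 and 0.37.

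Among the other thioredoxin and peroxiredoxin genes, Prdx5 and Prdx2 lay higher and Prdx4 and Prdx3 lower at 70 nmol. Prdx5, found in mitochondria and peroxisomes, had levels of 6.02, 6.23 and 6.53 with TPA alone, 35 nmol and 70 nmol, a difference of 0.52 ± 0.20 at 70 nmol. Prdx2 had 5.48, 5.60 and 5.86 on a probe with 10 spots per array, a difference of 0.39, and its other probes gave 0.07 and 0.22. The order was the reverse for Prdx4, the peroxiredoxin of the endoplasmic reticulum. Its levels were 4.76, 4.60 and 4.20, a difference of -0.56 ± 0.20, while a dim second probe gave 0.05 (0.49 at 35 nmol, where the bright probe gave -0.16). The mitochondrial Prdx3 had levels of 3.01, 3.02 and 2.78. Mitochondrial thioredoxin Txn2 differed by 0.18, and its reductase Txnrd2 by -0.15, with 3 probes of Txnrd2 lower at both doses. Red cells carry much PRDX2, and 5 red cell markers of 11 were above background on each array. The summed signal of a marker list, here and below, takes in all its unsaturated markers on the array, also those not well above background. Its brightest markers weigh most. With each array's 75th percentile as 1, the red cell sum was 93.5 with TPA alone, 16.4 at 35 nmol and 53.3 at 70 nmol. The part of red cells in the Prdx2 levels was not tested.

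The 4 enzymes of the pentose phosphate pathway lay slightly higher at 70 nmol on their brightest probes, and Me1 lay lower at both doses. G6pdx, the entry enzyme, had levels of 4.88, 5.01 and 5.12 with TPA alone, 35 nmol and 70 nmol. Pgd, the next NADPH-forming step, had 3.69, 3.85 and 4.02, and Taldo1, a transaldolase, had 6.27, 6.53 and 6.45. The differences at 70 nmol were 0.24, 0.34 and 0.18, of the order of the scanner error, and with spike-in scaling, which takes 0.36 off at this dose, all 3 turn negative. Tkt, the transketolase, had levels of 6.52, 6.56 and 6.81, a difference of 0.29 at 70 nmol and 0.04 at 35 nmol, where the median of all genes is also 0.04. A dim second Tkt probe gave -0.26 and -0.47 in these comparisons. Me1, cytosolic malic enzyme, which also makes NADPH, had levels of -1.10, -1.79 and -1.43. It differed by -0.69 ± 0.24 at 35 nmol and by -0.33 ± 0.23 at 70 nmol, on 1 of 2 probes.

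The glutathione transferases divided. Gstp1, the pi class enzyme, had levels of 5.93, 6.0 and 6.39 with TPA alone, 35 nmol and 70 nmol, 0.46 ± 0.20 higher at 70 nmol, and its second probe gave 0.62. Mgst1, a membrane-bound transferase, had levels of 4.30, 4.45 and 3.71, a difference of -0.59 ± 0.20 at 70 nmol (1.5-fold lower), and its second probe gave -0.62. Gstm1, of the mu class, had 4.07, 4.34 and 3.64, a difference of -0.43 ± 0.20, and its second probe gave -0.39. For each of these 3 genes both probes gave the same direction at 70 nmol, and at 35 nmol all 3 lay above TPA alone by 0.27 or less. Transferases of a class are near copies of each other, and hybridisation of a relative's transcript to these probes was not tested. Ephx1, microsomal epoxide hydrolase, had levels of 2.52, 2.51 and 2.11, so only the 70 nmol array was lower, on both probes. The carbonyl reductase Cbr1 differed by -0.14 at 70 nmol. Nqo1, a quinone reductase widely used as a readout of NRF2, and the transferase Gsta4 were not well above background on any array.

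Gsta3, an alpha class transferase abundant in liver, was the member with the greatest difference. Its brightest probe (chromosome 1, 21250259 to 21250318 on mm8) had levels of -2.11 with TPA alone and -0.05 at 35 nmol, and was not well above background at 70 nmol. It was 2.06 ± 0.23 higher at 35 nmol (4.17-fold) and at least 2.22-fold lower at 70 nmol than with TPA alone, and at least 9.25-fold lower at 70 nmol than at 35 nmol. The second probe was well above background at 35 nmol only. Hepatocyte markers moved with it. Of 18 markers, 16 were well above background with TPA alone, 17 at 35 nmol and 1 at 70 nmol (albumin, Alb). The summed signal of all 18 was 24.5, 79.6 and 0.726 on these arrays. At 70 nmol that sum comes mostly from markers not well above background. At 35 nmol 14 of the 16 measured were at least 2-fold higher, with a median of 1.78. The part of liver RNA in the Gsta3 result was not tested. Without Gsta3 0 of the members reached 2-fold at 35 nmol.

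Export pumps and other NRF2-driven genes lay a little higher at 70 nmol, except Osgin1. Abcc1, which exports glutathione conjugates, differed by 0.22, with its 3 probes between 0.14 and 0.22, and Abcc4, with levels of 1.27, 1.35 and 1.48, by 0.20. A dim Abcc4 probe gave 0.30 at 70 nmol and -0.24 at 35 nmol. Sqstm1, an autophagy receptor that binds KEAP1, had levels of 5.93, 6.11 and 6.12, a difference of 0.18 at 70 nmol. The differences of Abcc1, Abcc4 and Sqstm1 at 70 nmol are of the order of the scanner error. With spike-in scaling, which takes 0.36 off at this dose, all 3 turn negative. Osgin1, an oxidative stress induced growth inhibitor, had -0.37 with TPA alone, 0.10 at 35 nmol and -0.68 at 70 nmol on its brightest probe. It was thus 0.47 ± 0.21 higher at 35 nmol and lower at 70 nmol (-0.31 ± 0.21) on that probe. Dimmer probes gave 0.00 and 0.24 at 35 nmol, and the 1 of them measured at 70 nmol gave 0.21.

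Among the enzymes that remove superoxide and hydrogen peroxide, Sod2 lay higher and Cat lower at 70 nmol. Mitochondrial Sod2 had levels of 6.55, 6.66 and 6.92 with TPA alone, 35 nmol and 70 nmol, a difference of 0.37 at 70 nmol, and cytosolic Sod1 had 6.81, 7.24 and 6.96, highest at 35 nmol. Catalase Cat had 1.60, 1.55 and 1.09, a difference of -0.50 ± 0.20 at 70 nmol that no other probe could check. The 35 nmol array did not share the lower level of Cat. Gpx4, which reduces lipid peroxides, differed by 0.16 at 70 nmol, and the secreted Gpx3 by -0.26. Gpx1, the main cytosolic peroxidase, was saturated on all 3 arrays and gives no difference, and extracellular Sod3 was not well above background on any. Glrx, which removes glutathione from proteins, had levels of 2.96, 3.33 and 3.55. It was 0.59 ± 0.20 higher at 70 nmol (1.5-fold) and 0.38 higher at 35 nmol, on a single probe. Gsto1, an omega class transferase, differed by -0.22, and Msra, which repairs oxidised methionine, by -0.15 at 70 nmol.

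**Figure D4:**
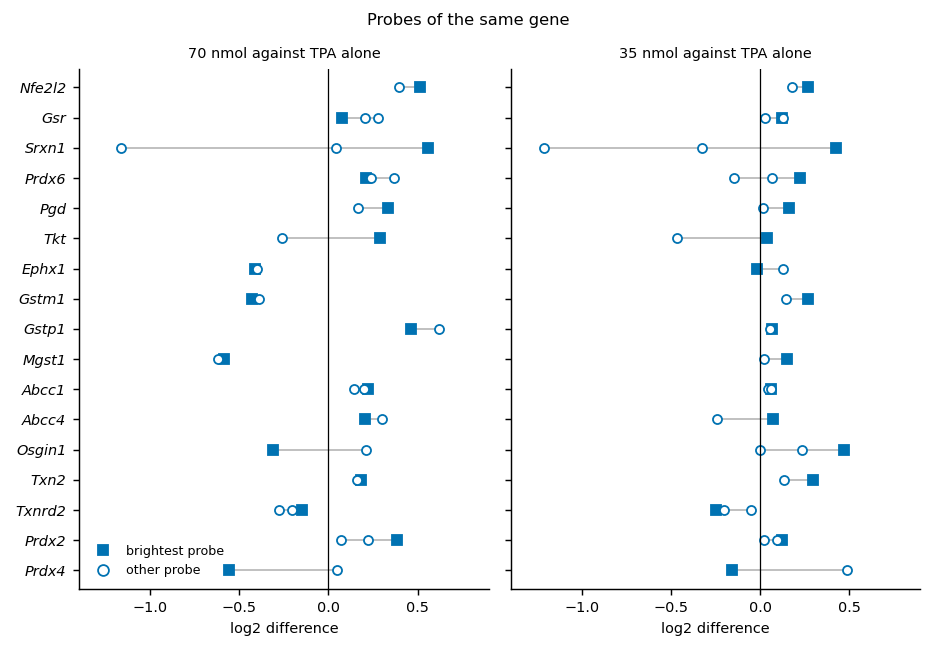
Log2 difference from TPA alone given by each measured probe (horizontal axis) for the 17 members with at least 2 measured probes, at 70 nmol (left) and 35 nmol (right); the filled square is the brightest probe used in the text and open circles are the others. Probes of Mgst1, Gstm1, Ephx1 and Gstp1 lie close together at 70 nmol, and those of Srxn1 span both sides of 0; with spike-in scaling every point would shift left by 0.36 or 0.42.

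Probes of the same gene mostly gave the same direction. At 70 nmol against TPA alone, 13 of 17 members with more than 1 measured probe had all probes on the same side of 0, and 4 had not (Srxn1, Tkt, Osgin1 and Prdx4). At 35 nmol 11 agreed and 6 did not. The members' between-probe standard deviation had a median of 0.086 at 70 nmol and 0.10 at 35 nmol, against 0.13 and 0.12 for all genes.

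Between the doses, Gsta3 was at least 9.25-fold lower at 70 nmol than at 35 nmol. Among members measured on both arrays, Osgin1, Mgst1 and Gstm1 had the greatest differences on their brightest probes, all lower at 70 nmol. Of 38 measured members, 0 differed at least 2-fold between 70 and 35 nmol, beside 0.92% of 12387 genes higher and 0.718% lower. At least 1.5-fold, 0 were higher and 3 lower (Osgin1, Mgst1 and Gstm1), beside 3.67% and 2.85% of all genes. Osgin1 differed by -0.78 ± 0.21, Mgst1 by -0.74 ± 0.20 and Gstm1 by -0.70 ± 0.20. The second probes of Mgst1 and Gstm1 gave -0.64 and -0.53. The other measured Osgin1 probe gave 0.21, so its probes disagree. Ephx1 (-0.40), Cat (-0.46), Gpx3 (-0.44), Prdx4 (-0.40) and Gsto1 (-0.50) were also lower at 70 nmol than at 35 nmol, and Gstp1 was higher (0.40). The members' median was 0.01, against 0.00 for all genes. This comparison shares the 70 nmol array with the first, so the lower members are not seen a second time on other RNA.

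Marker transcripts of several cell types differed between the arrays. All 8 general macrophage markers were well above background on each array, and Lyz2 was saturated on all 3. The summed signal of the other 7 was 453 with TPA alone, 457 at 35 nmol and 400.4 at 70 nmol. They did not go the same way at 70 nmol: Adgre1 differed by -0.51 (second probe -0.79), Cd14 by -0.24 and Fcgr1 by 0.76. Markers of large resident peritoneal macrophages were lower at 70 nmol in 9 of 9 measured, with a median difference of -1.08, and their median at 35 nmol was -0.20. All 10 were well above background on each array, and without Icam2, which was saturated with TPA alone and at 35 nmol, their summed signal was 390.2, 361 and 225 on the same arrays. Among them Alox15 differed by -1.65, Itga6 by -1.11 and Gata6 by -1.08 at 70 nmol, though a dim Gata6 probe gave 0.56. The least lowered of the 9 were Timd4 (-0.38), Vsig4 (-0.36) and Prg4 (-0.15). Mast cell markers were lower at 70 nmol in 7 of 7 measured (median -1.42) and at 35 nmol in 7 of 7 (median -0.82), with summed signals of 35.0, 23.0 and 13.7. Fibroblast markers were higher at 70 nmol in 4 of 4 measured (median 1.73), with summed signals of 9.65, 11.0 and 32.7. B cell markers were lower at 70 nmol in 6 of 6 measured (median -0.34), with summed signals of 261, 252 and 204. Neutrophil markers went both ways at 70 nmol, with 3 of 5 measured higher and 2 lower. Mesothelial markers were higher at 70 nmol in 2 of 2 measured (median 0.83). The part of any of these cell types or of liver RNA in the levels of Mgst1, Gstm1, Ephx1, Cat and Prdx4 was not tested. Nor was it tested for members that lay higher. All 3 arrays were on 1 slide in 1 scan, so effects of group and of array position cannot be told apart.

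**Figure D5:**
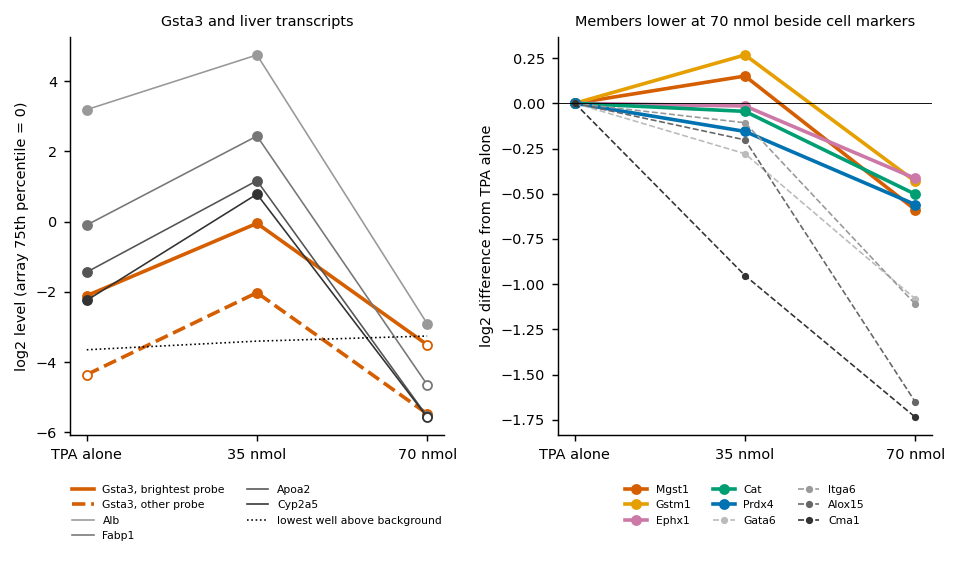
Left: log2 levels (array 75th percentile at 0) of both Gsta3 probes (orange) and 4 liver transcripts (grey) with TPA alone, 35 and 70 nmol chromate, with open points not well above background and the dotted line at the lowest level well above background. Right: log2 difference from TPA alone of 5 members that lay lower at 70 nmol (coloured) and of 4 markers of resident macrophages and mast cells (dashed); Gsta3 and the liver transcripts are highest at 35 nmol, and the 5 members and the markers are lowest at 70 nmol.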

How the data were processed

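The intensities deposited were read from the scans by Agilent Feature Extraction 10.5.1.1 with background subtraction and build mm8, per the file headers, which also set the flag for well above background at a multiple of 13. In the value table that the authors deposited, log2 values equal the log2 processed signal minus 1 constant per array (8.00 with TPA alone, 7.61 at 35 nmol and 7.67 at 70 nmol), within 0.01 for at least 99.8% of bright probes. The medians of its columns were -3.60, -3.74 and -3.78, and its scale and direction are thereby known.

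Here the log2 processed intensity was set relative to the array's own 75th percentile (8.07, 7.69 and 7.74 over 43379 spots that are not controls), outlier spots were left out, and spots of a probe were averaged, giving 41174 probes. Of these, 49.1%, 45.9% and 45.1% were well above background with TPA alone, 35 nmol and 70 nmol, which with the number of arrays limits the precision. Among members, 64 probes were named by accession through RefSeq, 10 by symbol and 1 by synonym. A gene's value is that of its brightest probe above background, measured where both arrays compared are above background and unsaturated. Where a signal is not well above background on an array, "at least" divides the bright signal by the dim one, or by the lowest signal well above background on that array where that is greater.

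Samples were grouped by their labels, 1 array each, so sizes of 2-fold and 1.5-fold stand in for a test. Named genes are all members, by role, with levels for those past 1.5-fold, regulators and members whose probes disagree against TPA alone, for others by role where space allows, and further pathway genes past 1.5-fold. Other pathway genes with levels or differences (Bach1, Mafg, Mafk, Gstm3, Idh1, Ftl1 and bounded genes) were chosen after their values were seen. Members and lists were chosen with earlier results of these data known. Alternatives were normexp (offset 50), quantile and cyclic loess normalization, other scalings, other filters, the mean over probes, the deposited table and other fold thresholds. Steps were run on simulated data with known fold changes, made from the TPA array with noise of 0.043, the size seen between repeated spots. That checks the code only, since the simulation holds no variation between arrays or mice. The software was R 4.3.3 (limma 3.58.1), Python 3.11.15, pandas 2.3.3, numpy 2.4.6 and matplotlib 3.10.9.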

Additional observations from a re-analysis of the deposited data

Results flagged for a closer look

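Gsta3 differed from TPA alone in opposite directions at the 2 doses. It was 2.06 higher on the log2 scale at 35 nmol and at least 2.22-fold lower at 70 nmol, where its signal was not well above background. The difference between these effects was not tested, since each group has 1 array.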

How the results depend on the processing

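The counts of members past the fold and the medians were recomputed under each alternative. Of 132 recomputed counts 123 equalled the reported one, and of 54 medians relative to all genes 52 moved by less than the spread between probes. At 70 nmol against TPA alone, 1 NRF2-driven gene was lower with no filter on dim probes and 1 at a threshold of 1.5-fold, 1 other antioxidant gene was higher at 1.5-fold, and the median of the other antioxidant genes minus that of all genes was -0.036 with cyclic loess and -0.14 with no filter, against 0.11. At 35 nmol, 0 NRF2-driven genes were higher with the stricter filter, which leaves out the dim Gsta3 probe, and 1 was lower with spike-in scaling and 1 at 1.5-fold (Me1, -1.11 with spike-in scaling). Between 70 and 35 nmol, 1 was higher and 1 lower with no filter, and 3 were lower at 1.5-fold. The causes were otherwise not tested. Spike-in scaling, on 4 of 10 spike-in probes, changed the sign of 48 of 115 member differences, normexp of 14, cyclic loess of 13, quantile of 11, the mean over probes of 9, median scaling of 3 and the deposited table of 1. Normexp gave 1.37 for Gsta3 and -0.35 for Me1 at 35 nmol, and the mean over probes gave -0.26 for Prdx4 and -0.05 for Osgin1 at 70 nmol. Over all genes, normexp gave 80 at least 2-fold higher and 48 lower at 70 nmol (204 and 136 reported), 55 and 10 at 35 nmol (143 and 38), and 39 and 20 between doses (114 and 89). Spike-in scaling gave 87 and 400 at 70 nmol and 71 and 251 at 35 nmol, and no filter gave 1130 and 1624, and 1095 and 1397. The stricter filter gave 120 and 74 at 70 nmol, 37 and 14 at 35 nmol, and 60 and 43 between doses. No paired analysis was possible because each group has 1 array and the labels give no replicate numbers. Signal near background limits what can be said of Gclm, Nqo1, Gsta4 and Sod3, and saturation of Gpx1.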
